A study of Homo sapiens with 45 samples.

Results

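The ERK feedback genes described here are 9 genes whose mRNAs are known to rise when the kinase ERK is active, and EGFR, a receptor that feeds the pathway, 10 members in all of the 60624 genes listed. They were chosen by name, as DUSP4, DUSP5, DUSP6, SPRY2, SPRY4, SPRED1, ETV4, ETV5, PHLDA1 and EGFR, and each was found by its Ensembl identifier in all 4 deposited count tables. The cells were T47D, a human luminal breast cancer line that carries the oestrogen receptor, and the depleted gene, ZHX2, encodes a transcription factor with zinc fingers and homeoboxes. PolyA RNA was sequenced from 45 libraries in 15 groups of 3, and the tables are named here shRNA, rescue, hexanediol and sgRNA after their design.

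The shRNA table held T47D cells with shZHX2 in hypoxia, with shCtrl in hypoxia and with shCtrl in normoxia. The rescue table held hypoxic cells with shZHX2 that also carried a form labelled WT, PA or SA, hypoxic cells with shZHX2 and vector, and hypoxic cells with shCtrl and vector. The letters PA and SA are not spelled out in the labels. The hexanediol table held hypoxic cells labelled Ctrl and hypoxic cells given 0.5% or 1% 1,6-hexanediol, an alcohol used to dissolve protein condensates, for 24 h per the design text. The sgRNA table held sgZHX2 against sgCtrl and teton_sgZHX2 against teton_control, all in hypoxia. Cells with a hairpin or guide were made with lentivirus and drug selection, so each such group is a selected population of 1 line. The labels of the hexanediol groups name no hairpin, guide or vector. The number of hairpins or guides behind a group is not given in the sources used here. The oxygen level is likewise not given. Nothing in the labels states that the 3 libraries of a group came from different cultures. Each p-value therefore reflects variation among libraries, part or all of which may be technical.

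EGFR and its relatives bind growth factors such as amphiregulin and pass the signal through RAS, RAF and MEK to ERK. Active ERK switches on genes that restrain it again. DUSP4 and DUSP5 are nuclear phosphatases that remove the activating phosphates of ERK, and DUSP6 does so in the cytoplasm. The sprouty proteins SPRY2 and SPRY4 block signalling between receptors and RAS, and SPRED1 brings the RAS inhibitor neurofibromin to the membrane. ETV4 and ETV5 are ETS family transcription factors that act downstream of ERK, and PHLDA1 is a pleckstrin homology-like protein whose mRNA follows ERK activity. EGFR is usually low in luminal breast cancer and high in basal breast cancer.

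On GRCh38 (GENCODE annotation) DUSP6 spans chr12:89347232-89353271 and PHLDA1 chr12:76025447-76033932, both on the minus strand, and EGFR spans chr7:55019021-55211628 on the plus strand. Promoter windows are shown for DUSP6, which had the largest fold difference of the members with shZHX2 in the shRNA table, and for PHLDA1 and EGFR, which were lower with shZHX2 in both tables and higher again with WT. They come from RefSeq on GRCh38.p14, run from 250 bases before to 50 bases after a transcript start, and are written 5′ to 3′ on the gene's strand. They lie at chr12:89352452-89352751 on the minus strand for DUSP6, at chr12:76031727-76032026 on the minus strand for PHLDA1 and at chr7:55018767-55019066 on the plus strand for EGFR. Capitals mark GGAA, the core of ETS family motifs, on either strand (TTCC on the strand shown).
DUSP6: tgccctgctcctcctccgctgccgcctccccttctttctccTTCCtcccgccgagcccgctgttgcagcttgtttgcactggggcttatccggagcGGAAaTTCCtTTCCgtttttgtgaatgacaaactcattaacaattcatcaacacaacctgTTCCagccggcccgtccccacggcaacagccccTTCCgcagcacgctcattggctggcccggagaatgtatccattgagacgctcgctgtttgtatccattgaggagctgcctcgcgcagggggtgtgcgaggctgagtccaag
PHLDA1: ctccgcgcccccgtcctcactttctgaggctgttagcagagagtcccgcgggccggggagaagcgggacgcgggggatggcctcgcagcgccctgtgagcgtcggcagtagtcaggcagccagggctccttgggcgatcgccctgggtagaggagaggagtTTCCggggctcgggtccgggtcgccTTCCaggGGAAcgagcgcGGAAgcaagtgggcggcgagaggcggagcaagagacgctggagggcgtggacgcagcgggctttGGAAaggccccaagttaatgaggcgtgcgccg
EGFR: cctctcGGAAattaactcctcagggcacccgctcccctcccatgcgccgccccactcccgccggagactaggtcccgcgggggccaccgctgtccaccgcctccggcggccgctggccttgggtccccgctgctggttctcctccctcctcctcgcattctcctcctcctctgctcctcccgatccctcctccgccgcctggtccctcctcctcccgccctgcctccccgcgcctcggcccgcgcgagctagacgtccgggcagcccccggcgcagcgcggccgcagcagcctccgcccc

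The DUSP6 window held 6 GGAA cores, the PHLDA1 window 5 and this EGFR window 1. Of 35116 RefSeq windows of the same length, 95.5% held at least 1 core, 28.6% at least 5 and 16.1% at least 6. Entries matched 6 of the 10 members, with 9 windows in all, the others being DUSP4, DUSP5, ETV4 and ETV5. None of the 9 windows held the longer ETS motif CCGGAAG (10.3% of all windows, and it contains GGAA), the HIF core ACGTG (21.4%) or the CRE part TGACGT (7.98%) on either strand. The AP-1 motif TGANTCA (7.71% of windows) occurred in 1 member window, the second EGFR window at chr7:55109589-55109888, which held 2 matches. A match is a description of the letters, and nothing was measured at these windows.

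Libraries held 17476890 to 19480495 counts (shRNA), 18056398 to 24760885 (rescue), 14111216 to 17713327 (hexanediol) and 21225854 to 27217814 (sgRNA). Levels are given as CPM, counts scaled to the depth of the library. All 10 luminal markers, among them ESR1, GATA3 and KRT8, were detected in each of the 45 libraries. ZHX2 was lower with shZHX2 in the shRNA table (log2 fold change −1.86 ± 0.15 SE, edgeR adjusted p = 3.6e-10) and in the rescue table (−2.22 ± 0.07, adjusted p = 3.88e-44). It was above vector with WT (72.3 CPM), PA (54.0 CPM) and SA (80.5 CPM), against 6.86 CPM with vector and 32.0 CPM with shCtrl and vector. It was not lower with sgZHX2 (49.6 ± 1.7 CPM, against 45.1 ± 1.4 CPM in sgCtrl, called higher at 0.13, adjusted p = 0.0044) or with teton_sgZHX2 (49.3 CPM, against 47.5 CPM in teton_control). An edit made by a guide need not lower the count of a transcript, so these counts do not check the sgRNA labels.

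**Figure D1:**
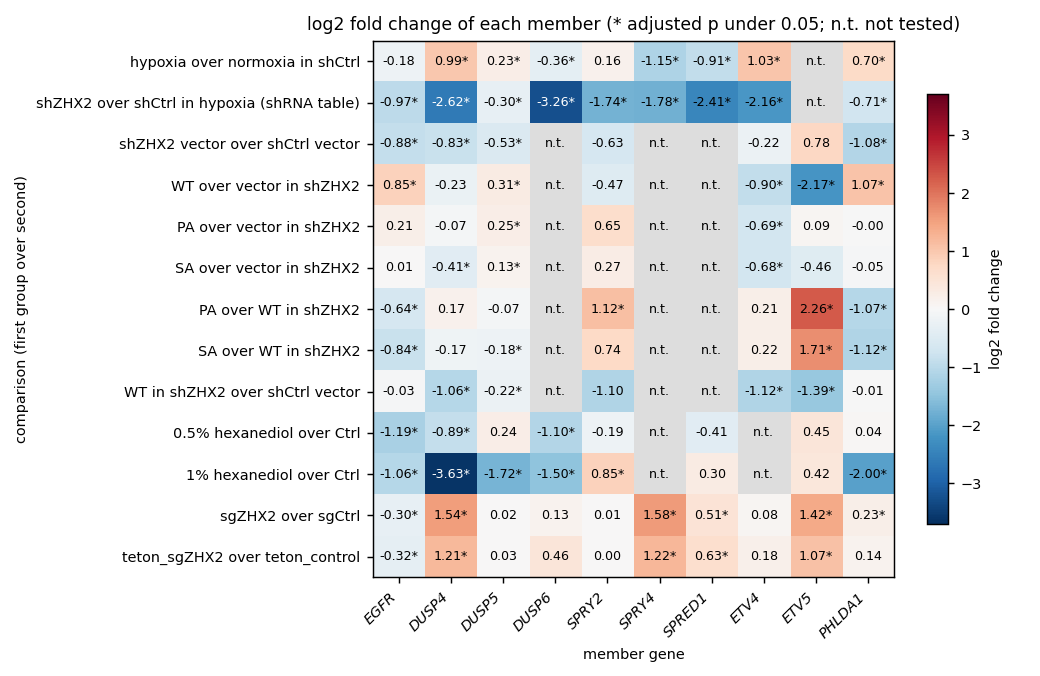
log2 fold change of each member (columns) in 13 comparisons (rows, first group over second) from edgeR's quasi-likelihood fit of each table, with an asterisk where the adjusted p was under 0.05 and grey where a member was too low to be tested. All 9 members tested were lower with shZHX2 in the shRNA table, while DUSP4, SPRY4, SPRED1 and ETV5 were higher with both sgZHX2 groups; DUSP5 under hypoxia is −0.25 with library size scaling, and GC and length correction also turns it (−0.58), SPRED1 under hypoxia (0.44), DUSP5 with sgZHX2 (−0.38) and teton_sgZHX2 (−0.27) and ETV4 with sgZHX2 (−0.43).

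In the shRNA table the members tested, EGFR among them, were lower when ZHX2 was depleted in hypoxia. The members were chosen with earlier results of these data known, so their count and median are descriptive. All 9 members tested were lower in shZHX2 than in shCtrl, where 33.2% of the 14903 genes tested were called lower and 33.6% higher, 66.8% in all. The members' median log2 fold change was −1.78, beside 0.02 over all genes tested. With all libraries fitted, the falls were deepest for the phosphatases DUSP6 and DUSP4 and the RAS inhibitor SPRED1, and smallest for the phosphatase DUSP5. ETV5 was too low to be tested, with 5 counts over the 3 shZHX2 libraries and 6 over the 3 shCtrl libraries in hypoxia. In bulk RNA, fewer cells of a type and less RNA per cell cannot be told apart.

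DUSP4, the nuclear phosphatase, had 27.8, 31.8 and 29.04 CPM in shZHX2 hypoxia, against 183, 181 and 182 CPM in shCtrl hypoxia. The shZHX2 libraries lay far below the shCtrl libraries with no overlap, a log2 fold change of −2.62 ± 0.05 SE (edgeR adjusted p = 4.42e-49). DUSP6, the cytoplasmic phosphatase, had 2, 20 and 9 counts in shZHX2 hypoxia (0.116, 1.09 and 0.497 CPM), against 84, 94 and 87 counts in shCtrl hypoxia (5.47, 5.95 and 5.29 CPM). DUSP6 was thus near the limit of detection in shZHX2 libraries, which also spread widely, and the groups did not overlap (−3.26 ± 0.27, edgeR adjusted p = 1.84e-14). Without shZHX2 library 2, the highest of its group, DUSP6 was at −4.14. DUSP5 had 14.9, 16.9 and 16.2 CPM in shZHX2 hypoxia, against 19.8, 19.99 and 19.2 CPM in shCtrl hypoxia. Its groups did not overlap, and its fall was the smallest of the members called (−0.30 ± 0.09, edgeR adjusted p = 0.00215). Its call was lost with library size scaling (−0.06) and with correction for GC content and length (−0.14).

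SPRY2, the sprouty inhibitor, had 1.96, 2.23 and 1.71 CPM in shZHX2 hypoxia, against 6.58, 5.57 and 7.60 CPM in shCtrl hypoxia. The shZHX2 libraries were all below the lowest shCtrl library (−1.74 ± 0.18, edgeR adjusted p = 9.44e-13). SPRY4 had 6, 1 and 0 counts in shZHX2 hypoxia, against 10, 10 and 2 counts in shCtrl hypoxia. The groups overlapped, and the call (−1.78 ± 0.71, edgeR adjusted p = 0.0256) was lost with library size scaling and without shCtrl hypoxia library 1 (−1.47) or 2 (−1.49) or shZHX2 library 2 (−1.41) or 3 (−1.21). Without shZHX2 library 1, which held 6 of the 7 shZHX2 counts, SPRY4 was at −3.79 (adjusted p = 0.0015), so its size rests on that library. SPRED1, the partner of neurofibromin, had 0.751, 0.326 and 0.552 CPM in shZHX2 hypoxia, against 2.80, 2.91 and 2.98 CPM in shCtrl hypoxia. Every shZHX2 library was below every shCtrl library (−2.41 ± 0.28, edgeR adjusted p = 3.39e-11).

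ETV4, the ETS factor, had 0.809, 0.435 and 0.442 CPM in shZHX2 hypoxia, against 2.80, 2.66 and 2.13 CPM in shCtrl hypoxia, with no overlap (−2.16 ± 0.32, edgeR adjusted p = 3.83e-08). PHLDA1 had 14.6, 14.2 and 12.5 CPM in shZHX2 hypoxia, against 20.9, 23.6 and 23.0 CPM in shCtrl hypoxia. It fell less than the phosphatases DUSP4 and DUSP6 did, again with no overlap (−0.71 ± 0.09, edgeR adjusted p = 2.28e-09). EGFR had 5.54, 7.51 and 5.08 CPM in shZHX2 hypoxia, against 12.4, 11.96 and 11.2 CPM in shCtrl hypoxia. The receptor was 1.95-fold lower with shZHX2 (−0.97 ± 0.13, edgeR adjusted p = 1.21e-08) and its groups did not overlap.

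**Figure D2:**
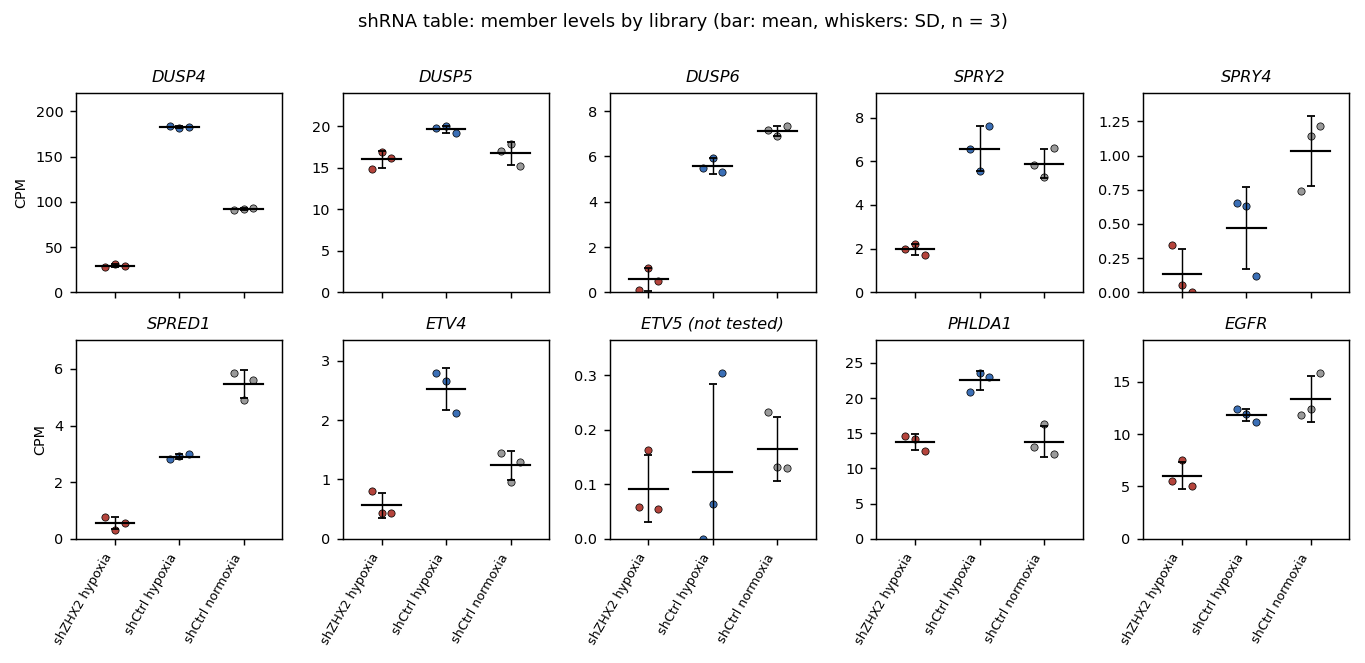
CPM (linear axis from 0) of each of the 10 members in the 3 libraries of shZHX2 hypoxia, shCtrl hypoxia and shCtrl normoxia; points are libraries, bars means and whiskers SD. DUSP4 sits at 27.8 to 31.8 CPM in shZHX2 hypoxia, 181 to 183 CPM in shCtrl hypoxia and 91.1 to 92.7 CPM in shCtrl normoxia.

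Other genes of the pathway moved both ways with shZHX2 in the shRNA table. The genes named here were all lower, and none of the genes called higher is named. Of 16 ligands and receptors tested, 5 were higher and 10 lower (median −0.65), among them the receptor FGFR4 (26.8 against 107 CPM, −1.999 ± 0.05) and the EGFR ligand HBEGF (1.95 against 6.38 CPM, −1.70 ± 0.18). Of 18 cascade genes, 6 were higher and 6 lower (median 0.03), with NRAS, which encodes a RAS protein, at 2.15 against 7.16 CPM (−1.73 ± 0.16). Of 23 other inhibitors, 6 were higher and 8 lower (median −0.04), with SPRED2, a relative of SPRED1, at 9.51 against 36.4 CPM (−1.94 ± 0.08). Of 16 other ERK-responsive targets, 5 were higher and 9 lower (median −0.55), with the ephrin receptor EPHA2 at 3.40 against 16.0 CPM (−2.23 ± 0.12) and FOS, a subunit of AP-1, at 7.52 against 19.6 CPM (−1.38 ± 0.12).

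Several measures of the libraries moved with shZHX2 as well. The luminal markers summed to 28201 to 28610 CPM in shZHX2 hypoxia, against 60156 to 60748 CPM in shCtrl hypoxia. Most of that sum was the keratins KRT8, KRT19 and KRT18, which reached 35453, 17513 and 4557 CPM in this table. Of the 10 luminal markers, 9 were lower with shZHX2 and none higher (median log2 fold change −0.62). Mitochondrial transcripts took 11.9 to 12.4% of counts, against 9.12 to 9.57%. The 12 markers of other cell types summed to 69.7 to 72.8 CPM in shZHX2 hypoxia, against 47.9 to 52.8 CPM, nearly all of it COL1A1, with KRT5, COL1A2, PDGFRA and PECAM1 at 0 in all 9 libraries. Their part in the result was not tested. With library size scaling, 7 members were called lower instead of 9, and the split over all genes was 7086 higher and 3393 lower instead of 5006 and 4955, around a median of 0.25.

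The effect of hypoxia itself on the members was mixed. Comparing shCtrl hypoxia with shCtrl normoxia, 4 of 9 members tested were higher (DUSP4, DUSP5, ETV4 and PHLDA1), 3 were lower (DUSP6, SPRY4 and SPRED1), and SPRY2 and EGFR did not pass the test. These counts stand against a background of 79.9% of genes called, 43.1% higher and 36.8% lower, and the members' median was 0.16, beside 0.12 over all genes tested. This comparison shares its hypoxic shCtrl libraries with the one above.

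DUSP4 had 183, 181 and 182 CPM in shCtrl hypoxia, against 91.1, 92.1 and 92.7 CPM in shCtrl normoxia. It was 1.98-fold higher with no overlap (0.99 ± 0.04 SE, edgeR adjusted p = 4.03e-31). PHLDA1 had 20.9, 23.6 and 23.0 CPM in shCtrl hypoxia, against 13.1, 16.2 and 12.1 CPM in shCtrl normoxia, again with no overlap (0.70 ± 0.09, edgeR adjusted p = 7.42e-10). These were the members whose call and direction held under every alternative run here. EGFR had 12.4, 11.96 and 11.2 CPM in shCtrl hypoxia, against 11.8, 12.4 and 15.9 CPM in shCtrl normoxia. The EGFR groups overlapped (−0.18, 95% interval −0.40 to 0.05, edgeR adjusted p = 0.153), and EGFR was called lower with library size scaling (−0.66) and when only these groups were fitted (−0.30).

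ETV4 had 2.80, 2.66 and 2.13 CPM in shCtrl hypoxia, against 1.44, 0.966 and 1.30 CPM in shCtrl normoxia, with no overlap (1.03 ± 0.27, edgeR adjusted p = 0.000558). Its call was lost with library size scaling (0.55) and with GC and length correction (0.10). SPRED1 had 2.80, 2.91 and 2.98 CPM in shCtrl hypoxia, against 5.86, 4.92 and 5.59 CPM in shCtrl normoxia, with no overlap (−0.91 ± 0.18, edgeR adjusted p = 1.13e-05). With GC and length correction SPRED1 was called higher instead (0.44). SPRED1 has the lowest exonic GC content of the members (38.9%) and ETV4 the highest (60.8%), and over all genes the log2 fold change rose with GC content (Spearman rho 0.694 across genes, which are not independent replicates).

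DUSP5 had 19.8, 19.99 and 19.2 CPM in shCtrl hypoxia, against 17.0, 17.9 and 15.3 CPM in shCtrl normoxia (0.23 ± 0.08, edgeR adjusted p = 0.00983). The groups did not overlap, but DUSP5 was called lower with library size scaling (−0.25) and with GC and length correction (−0.58), and its call was lost without normoxia library 3 (0.17). DUSP6 had 5.47, 5.95 and 5.29 CPM in shCtrl hypoxia, against 7.17, 6.89 and 7.33 CPM in shCtrl normoxia. Its groups did not overlap, and the call (−0.36 ± 0.17, edgeR adjusted p = 0.0492) was lost whichever of the 6 libraries was left out (−0.32 to −0.41) and with the replicate number as a block (−0.36, adjusted p = 0.0611). SPRY4 had 10, 10 and 2 counts in shCtrl hypoxia, against 16, 26 and 28 counts in shCtrl normoxia (−1.15 ± 0.47, edgeR adjusted p = 0.0226), a call lost without hypoxia library 3 (−0.69) or normoxia library 2 (−1.08) or 3 (−1.02). SPRY2 had 6.58, 5.57 and 7.60 CPM in shCtrl hypoxia, against 5.82, 5.27 and 6.59 CPM in shCtrl normoxia, with overlap (0.16, adjusted p = 0.311); with library size scaling it was called lower (−0.32).

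The direction of small changes in this comparison depended on scaling. Over all genes, 6421 were higher and 5485 lower, against 3385 and 8061 with library size scaling, which moved the median of all genes to −0.36, and 4364 and 6212 with GC and length correction. DUSP5, at −0.25 under that scaling, stood above that median, and EGFR, at −0.66, below it. Mitochondrial transcripts took 9.12 to 9.57% of counts in shCtrl hypoxia, against 4.55 to 4.76% in shCtrl normoxia. The luminal markers, mostly KRT8, KRT19 and KRT18, summed to 60156 to 60748 CPM in shCtrl hypoxia, against 23599 to 25282 CPM in shCtrl normoxia. Of these 10 markers, 8 were higher and 2 lower in hypoxia (median 0.48). The 12 markers of other cell types summed to 47.9 to 52.8 CPM, against 33.9 to 38.0 CPM. Their part in the results was not tested.

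Among the other genes of the pathway, FOS and SPRY1 were far higher in hypoxia, and NF1 and SOS1 far lower. Only the members were examined under other settings, so how far these genes depend on scaling or GC content was not tested. Of 16 other ERK-responsive targets, 10 were higher and 3 lower (median 0.35), with FOS at 19.6 against 2.27 CPM (3.11 ± 0.14) and MYC, the growth regulator, at 145 against 52.7 CPM (1.46 ± 0.04). Of 23 other inhibitors, 11 were higher and 8 lower (median 0.22), with SPRY1, a sprouty relative, at 16.3 against 2.503 CPM (2.69 ± 0.12) and NF1, which encodes neurofibromin, at 16.5 against 79.5 CPM (−2.26 ± 0.07). Of 18 cascade genes, 9 were higher and 9 lower (median −0.07), with the RAS activator SOS1 at 2.75 against 11.4 CPM (−2.05 ± 0.16). Of 16 ligands and receptors, 10 were higher and 3 lower (median 0.22), with ERBB2 at 752 against 309 CPM (1.28 ± 0.03).

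In the rescue table EGFR and PHLDA1 were lower with shZHX2 and vector and with WT overlapped the shCtrl libraries. The phosphatase DUSP5 took an intermediate level with WT, and DUSP4 stayed low. ETV4 and ETV5 were lower with WT than with vector, and ETV4 was also lower with PA and with SA. With shZHX2 and vector, 4 of 7 members tested were lower than with shCtrl and vector (EGFR, PHLDA1, DUSP4 and DUSP5) and none higher, where 35.3% of the 14302 genes tested were called lower and 33.9% higher, 69.2% in all. DUSP6, SPRY4 and SPRED1 were too low to be tested in this table.

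EGFR had 7.72, 7.33 and 7.92 CPM with shZHX2 and vector, against 15.6, 13.3 and 13.5 CPM with shCtrl and vector. The vector libraries were all below the shCtrl libraries (−0.88 ± 0.09 SE, edgeR adjusted p = 1.15e-13). PHLDA1 had 4.29, 4.48 and 4.78 CPM with shZHX2 and vector, against 8.10, 10.1 and 10.3 CPM with shCtrl and vector, with no overlap (−1.08 ± 0.11, edgeR adjusted p = 8.91e-14). DUSP4 had 4.19, 3.30 and 3.55 CPM with shZHX2 and vector, against 6.54, 6.92 and 6.12 CPM with shCtrl and vector (−0.83 ± 0.13, edgeR adjusted p = 9.57e-08). DUSP4 again did not overlap between groups, from a level far below that of the shRNA table. DUSP5 had 26.9, 26.8 and 26.4 CPM with shZHX2 and vector, against 39.4, 36.8 and 39.6 CPM with shCtrl and vector, with no overlap (−0.53 ± 0.05, edgeR adjusted p = 7.95e-15).

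The members that did not pass the test in this knockdown were SPRY2 (−0.63, 95% interval −1.55 to 0.29), ETV4 (−0.22, −0.62 to 0.19) and ETV5 (0.78, −0.04 to 1.59). ETV5 was called higher without shCtrl vector library 1 (1.09) or 2 (1.10). SPRED1 had 1, 3 and 1 counts with shZHX2 and vector, against 11, 3 and 7 counts with shCtrl and vector, and when the low-count filter was left out it was called lower (−2.16 ± 0.71, adjusted p = 0.00814).

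WT over vector, both in shZHX2 cells, gave 3 members higher (EGFR, PHLDA1 and DUSP5) and 2 lower (ETV4 and ETV5) of 7 tested, where 69.7% of genes were called, 35.1% higher and 34.6% lower. EGFR had 15.03, 13.3 and 12.9 CPM with WT, against 7.72, 7.33 and 7.92 CPM with vector. The WT libraries were all above the vector libraries (0.85 ± 0.09 SE, edgeR adjusted p = 7.01e-13). PHLDA1 had 9.12, 10.6 and 8.82 CPM with WT, against 4.29, 4.48 and 4.78 CPM with vector, with no overlap (1.07 ± 0.11, edgeR adjusted p = 1.78e-13). DUSP5 had 33.5, 32.9 and 33.1 CPM with WT, against 26.9, 26.8 and 26.4 CPM with vector, with no overlap (0.31 ± 0.05, edgeR adjusted p = 4.6e-07). DUSP4 had 3.12, 2.69 and 3.53 CPM with WT, against 4.19, 3.30 and 3.55 CPM with vector, with overlap (−0.23, 95% interval −0.54 to 0.07, edgeR adjusted p = 0.175).

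The ETS factors went the other way. ETV4 had 0.898, 0.877 and 1.25 CPM with WT, against 2.02, 1.67 and 1.96 CPM with vector, with no overlap (−0.90 ± 0.25, edgeR adjusted p = 0.00084). ETV5 had 5, 1 and 2 counts with WT, against 16, 15 and 13 counts with vector, with no overlap (−2.17 ± 0.53, edgeR adjusted p = 0.000206). Without WT library 1 it was −2.86. SPRY4, not tested, had 3 counts over the 3 WT libraries and 23 over the 3 vector libraries, so that its level with vector was 6.45 times that with WT by summed counts (95% counting interval 1.95 to 33.5). SPRY2 had 4, 3 and 5 counts with WT, against 4, 5 and 11 counts with vector, with overlap (−0.47, adjusted p = 0.467). SPRED1 had 6, 1 and 1 counts with WT, against 1, 3 and 1 counts with vector, and DUSP6 had 12, 3 and 5 counts with WT, against 1, 5 and 4 counts with vector.

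WT in shZHX2 cells was also compared with shCtrl and vector, the cells in which ZHX2 was not depleted. Of 7 members tested, 4 were lower and none higher, where 54.2% of genes were called, 27.1% lower and 27.1% higher. EGFR was at 13.7 ± 1.1 CPM with WT and 14.1 ± 1.3 CPM with shCtrl and vector (SD, n = 3 each), a log2 fold change of −0.03 with a 95% interval of −0.20 to 0.14. PHLDA1 was at 9.51 ± 0.94 CPM with WT and 9.51 ± 1.23 CPM with shCtrl and vector (−0.01, −0.21 to 0.19). The groups overlapped for both genes, and the intervals leave room for small differences. DUSP4 (−1.06 ± 0.14, edgeR adjusted p = 9.89e-10), DUSP5 (−0.22 ± 0.05, adjusted p = 0.000253) and ETV4 (−1.12 ± 0.24, adjusted p = 5.37e-05) were lower with WT without overlap. ETV5 overlapped (−1.39 ± 0.60, adjusted p = 0.0439), and its call was lost without shCtrl vector library 1 (−1.09) or 2 (−1.07), without WT library 2 (−1.07) or 3 (−1.26), with no filter (−1.41), with GC and length correction (−1.32), with only these groups fitted (−1.39) and with DESeq2 (−1.46, adjusted p = 0.0704). Without WT library 1 ETV5 was at −2.08. WT brought ZHX2 to 2.26 times its level with shCtrl and vector.

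**Figure D3:**
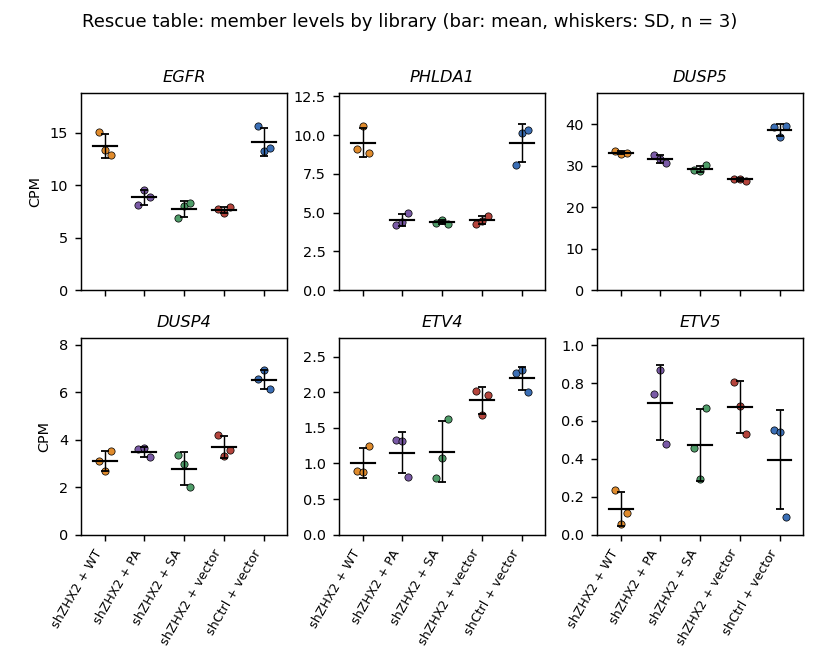
CPM (linear axis from 0) of 6 members in the 3 libraries of each rescue group, from shZHX2 with WT, PA, SA and vector to shCtrl with vector; points are libraries, bars means and whiskers SD. EGFR sits at 12.9 to 15.03 CPM with WT and 13.3 to 15.6 CPM with shCtrl and vector, and at 6.85 to 9.58 CPM with PA, SA or vector.

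PA and SA gave EGFR and PHLDA1 levels near those of vector. PA over vector called 2 of 7 members (DUSP5 higher, ETV4 lower), where 47.6% of genes were called (24.7% higher, 22.9% lower), and SA over vector called 3 (DUSP5 higher, DUSP4 and ETV4 lower), where 41.7% were called (20.2% higher, 21.5% lower). EGFR had 8.14, 9.58 and 8.90 CPM with PA, against 7.72, 7.33 and 7.92 CPM with vector. All PA libraries were above the vector libraries, by a difference that did not pass the test (0.21, 95% interval 0.02 to 0.40, edgeR adjusted p = 0.0659) and was called without PA library 1 (0.26) and with library size scaling (0.36). EGFR had 6.85, 8.04 and 8.28 CPM with SA, overlapping vector (0.01, −0.19 to 0.20, adjusted p = 0.955). PHLDA1 had 4.22, 4.42 and 4.98 CPM with PA and 4.34, 4.53 and 4.26 CPM with SA, both overlapping vector (PA 0.00, −0.25 to 0.24, adjusted p = 0.994; SA −0.05, −0.30 to 0.20, adjusted p = 0.795).

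DUSP5, the nuclear phosphatase, had 32.6, 31.5 and 30.6 CPM with PA and 28.9, 28.8 and 30.1 CPM with SA, against 26.9, 26.8 and 26.4 CPM with vector. Neither group overlapped vector (PA 0.25 ± 0.05, edgeR adjusted p = 6.83e-05; SA 0.13 ± 0.05, adjusted p = 0.0365). The SA call was lost with DESeq2 (adjusted p = 0.0784), without vector library 1 (0.14), 2 (0.14) or 3 (0.13) and without SA library 3 (0.11). ETV4 had 1.32, 1.32 and 0.814 CPM with PA and 0.793, 1.07 and 1.63 CPM with SA, against 2.02, 1.67 and 1.96 CPM with vector. Both ETV4 groups lay below vector (PA −0.69 ± 0.23, edgeR adjusted p = 0.00855; SA −0.68 ± 0.23, adjusted p = 0.0105). Both calls were lost with GC and length correction (−0.53 and −0.47), that of PA also without PA library 3 (−0.52) and that of SA without SA library 1 (−0.46). Over all genes the log2 fold change fell with GC content in PA (Spearman rho −0.482), SA (−0.541) and WT (−0.382) over vector. Genes are not independent replicates. ETV4 has the highest exonic GC content of the members (60.8%), and the part of GC content here was not tested further. DUSP4 had 3.34, 2.97 and 2.01 CPM with SA, overlapping vector (−0.41 ± 0.15, adjusted p = 0.0254), a call lost without SA library 3 (−0.21) or vector library 1 (−0.31), with DESeq2 (adjusted p = 0.0637), with no filter (−0.39) and with GC and length correction (−0.36). With library size scaling, genes split 5804 higher and 1794 lower for PA over vector instead of 3536 and 3270, around a median of 0.17.

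Set directly against WT, EGFR and PHLDA1 were lower with PA and with SA. PA over WT called 4 of 7 members (SPRY2 and ETV5 higher, PHLDA1 and EGFR lower), where 66.9% of genes were called (33.2% higher, 33.7% lower), and SA over WT called 4 (ETV5 higher, DUSP5, PHLDA1 and EGFR lower), where 64.1% were called (32.1% higher, 32% lower). EGFR was lower with PA (−0.64 ± 0.09 SE, edgeR adjusted p = 4.39e-09) and with SA (−0.84 ± 0.09, adjusted p = 1.14e-12), and no PA or SA library reached the lowest WT library. PHLDA1 was lower with PA (−1.07 ± 0.11, edgeR adjusted p = 1.47e-13) and with SA (−1.12 ± 0.11, adjusted p = 4.04e-14), again with no overlap. DUSP5 was lower with SA (−0.18 ± 0.05, adjusted p = 0.00257), a call lost with library size scaling (−0.08), while PA gave −0.07 (adjusted p = 0.25), which became 0.18 and was called higher with library size scaling.

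ETV5 had 18, 21 and 10 counts with PA and 11, 6 and 16 counts with SA, against 5, 1 and 2 counts with WT. It was higher with PA (2.26 ± 0.52, edgeR adjusted p = 9.54e-05) and with SA (1.71 ± 0.56, adjusted p = 0.00605), with no overlap, and the SA call was lost without SA library 3 (1.38). Without WT library 1 these were 2.94 and 2.40. SPRY2 was called higher with PA (17, 9 and 7 counts, against 4, 3 and 5 counts with WT, adjusted p = 0.0474), a call lost with DESeq2 (adjusted p = 0.109) and without PA library 1 (0.69) or WT library 1 (1.02) or 2 (1.01). SPRY4 had 8, 4 and 10 counts with PA and 5, 4 and 11 counts with SA, against 2, 1 and 0 counts with WT, with no overlap; it was not tested with the filter, and without it was called higher with PA (2.43 ± 0.77, adjusted p = 0.00629) and SA (2.34 ± 0.79, adjusted p = 0.0114). ZHX2 itself had 54.4, 53.6 and 53.8 CPM with PA and 80.2, 82.9 and 78.4 CPM with SA, against 74.0, 71.8 and 71.3 CPM with WT. These forms share the WT and vector libraries of the comparisons above. With library size scaling, genes split 7012 higher and 2913 lower for PA over WT instead of 4742 and 4826 (median 0.25), around a median of 0.10 for SA over WT, and 2728 and 5266 for WT over shCtrl vector instead of 3882 and 3874 (median −0.12). Under it DUSP4 was called higher in PA over WT (0.41) and SPRY2 lower in WT over shCtrl vector (−1.21).

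The EGFR ligand amphiregulin, AREG, had the levels 392 CPM with WT, 98.4 CPM with PA, 118 CPM with SA, 86.0 CPM with vector and 404 CPM with shCtrl and vector. It was thus lower in knockdown (−2.24 ± 0.03, edgeR adjusted p = 1.2e-65) and higher with WT (2.19 ± 0.03, adjusted p = 1.8e-64). The other genes named below, FOS, MYC, SPRY1 and NRAS, also had lower levels with vector than with shCtrl and higher levels with WT. Genes of the lists that moved the other way are not named. Of 15 ligands and receptors tested, 1 was higher and 12 lower with vector against shCtrl (median −0.96), and 10 were higher and 2 lower with WT against vector (median 0.66). Of 17 other ERK-responsive targets, 6 were higher and 8 lower in the knockdown (median −0.12), and 8 were higher and 8 lower with WT (median 0.16). FOS was at 163 CPM with WT, 50.8 CPM with PA, 53.9 CPM with SA, 40.1 CPM with vector and 159 CPM with shCtrl and vector, and MYC at 583, 251, 244, 205 and 637 CPM in the same groups. Of 21 other inhibitors, 3 were higher and 11 lower in the knockdown (median −0.38), and 9 higher and 5 lower with WT (median 0.06), with SPRY1 at 17.6 CPM with WT, 7.66 CPM with vector and 18.9 CPM with shCtrl and vector. Of 19 cascade genes, 7 were higher and 8 lower in the knockdown (median −0.13), and 8 higher and 7 lower with WT (median 0.03), with NRAS at 220 CPM with WT, 115 CPM with vector and 265 CPM with shCtrl and vector.

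Library measures moved with these groups too. The luminal markers summed to 44933 to 45598 CPM with WT, 29843 to 30058 CPM with PA, 33164 to 33625 CPM with SA, 31612 to 32901 CPM with vector and 47196 to 48702 CPM with shCtrl and vector. KRT8, KRT19 and KRT18 again made up most of the sum. All 10 markers were lower with vector against shCtrl (median −0.56) and higher with WT against vector (median 0.71). Mitochondrial transcripts took 0.312 to 0.333% of counts with WT, 1.16 to 1.26% with PA, 1.12 to 1.19% with SA, 0.785 to 0.807% with vector and 0.749 to 0.778% with shCtrl and vector. The 12 markers of other cell types summed to 14.4 to 31.8 CPM over the groups, mostly COL1A1, with PDGFRA at 0 in all 15 libraries. Their part in the results was not tested.

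EGFR, DUSP4 and DUSP6 were lower at both doses of 1,6-hexanediol, and DUSP5 and PHLDA1 were lower at the higher dose. At 0.5%, 3 of 8 members tested were lower (EGFR, DUSP4 and DUSP6) and none higher, where 39% of the 16840 genes tested were called, 19.6% lower and 19.4% higher. At 1%, 5 members were lower (EGFR, DUSP4, DUSP5, DUSP6 and PHLDA1) and SPRY2 was higher, where 62.5% of genes were called, 32.3% lower and 30.2% higher. SPRY4 and ETV4 were too low to be tested in this table. The second library of each dose stood apart from its group over all genes. At 0.5% its pairs gave chi-square values, per degree of freedom, of 29.5 and 27.3, against 3.48 for the other pair, and at 1% they were 9.77 and 9.9, against 2.04. No member's call changed when both second libraries were left out.

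EGFR had 64.1, 64.2 and 64.7 CPM in Ctrl, 32.6, 21.8 and 29.9 CPM at 0.5% and 34.3, 28.2 and 30.1 CPM at 1%. Both doses lay below Ctrl with no overlap (0.5% −1.19 ± 0.12 SE, edgeR adjusted p = 4.74e-06; 1% −1.06 ± 0.12, adjusted p = 3.16e-06). The doses overlapped each other (1% over 0.5% 0.13, 95% interval −0.11 to 0.37, adjusted p = 0.385). DUSP4 had 138, 144 and 140 CPM in Ctrl, 86.3, 57.8 and 83.9 CPM at 0.5% and 9.86, 13.1 and 10.9995 CPM at 1%. It was lower at each step of dose, with no overlap (0.5% −0.89 ± 0.13, edgeR adjusted p = 0.000286; 1% −3.63 ± 0.15, adjusted p = 2.18e-09; 1% over 0.5% −2.74 ± 0.15, adjusted p = 3.24e-08). The second library at 0.5% hexanediol was the lowest of its group for both genes.

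PHLDA1 had 16.3, 20.002 and 17.6 CPM in Ctrl, 18.4, 19.3 and 17.7 CPM at 0.5% and 4.73, 4.56 and 4.10 CPM at 1%. The low dose overlapped Ctrl (0.04, 95% interval −0.17 to 0.25, edgeR adjusted p = 0.79) and the high dose was far below it (−2.005 ± 0.12, adjusted p = 3.77e-09). DUSP5 had 5.14, 4.72 and 4.37 CPM in Ctrl, 7.29, 5.03 and 4.50 CPM at 0.5% and 1.51, 1.48 and 1.31 CPM at 1%. It too overlapped Ctrl at the low dose (0.24, −0.12 to 0.61, adjusted p = 0.331) and fell at the high dose (−1.72 ± 0.22, adjusted p = 8.03e-06). From 0.5% to 1%, 3 of 8 members tested were lower (DUSP4, DUSP5 and PHLDA1) and 2 higher (SPRY2 and SPRED1). In that step 56% of genes were called (28.3% higher, 27.7% lower). PHLDA1 gave −2.05 ± 0.12 (edgeR adjusted p = 4.33e-09), DUSP5 −1.96 ± 0.22 (adjusted p = 2.33e-06) and SPRY2 1.05 ± 0.17 (adjusted p = 8.65e-05).

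DUSP6 had 21, 18 and 18 counts in Ctrl, 12, 12 and 4 counts at 0.5% and 6, 10 and 7 counts at 1%. Both doses lay below Ctrl with no overlap (0.5% −1.10 ± 0.35, edgeR adjusted p = 0.021; 1% −1.50 ± 0.36, adjusted p = 0.00208). The call at 0.5% was lost without Ctrl library 1 (−1.004) or 2 (−1.07) or 0.5% library 3 (−0.75). SPRY2 had 3.61, 3.75 and 4.11 CPM in Ctrl, 2.84, 3.90 and 3.29 CPM at 0.5% and 6.84, 7.91 and 5.97 CPM at 1%. It overlapped Ctrl at the low dose (−0.19, adjusted p = 0.429) and was above it in every library at the high dose (0.85 ± 0.17, adjusted p = 0.000391).

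SPRED1 had 6.67, 6.22 and 5.87 CPM in Ctrl, 4.06, 3.97 and 6.04 CPM at 0.5% and 7.69, 8.68 and 6.71 CPM at 1%. Neither dose was called against Ctrl (0.5% −0.41, edgeR adjusted p = 0.0797; 1% 0.30, adjusted p = 0.132), and 1% was above 0.5% (0.72 ± 0.17, adjusted p = 0.0025). Without 0.5% library 3 the low dose was called lower (−0.64), and the high dose was called higher with library size scaling (0.48) and when only those groups were fitted (0.35). ETV5 had 9, 6 and 5 counts in Ctrl, 6, 11 and 12 counts at 0.5% and 7, 14 and 10 counts at 1%, with overlap (0.45 and 0.42, adjusted p = 0.429 and 0.397). ETV4 had 9, 9 and 14 counts in Ctrl, 3, 2 and 10 counts at 0.5% and 1, 6 and 6 counts at 1%, and without the filter it was called lower at 1% (−1.40 ± 0.50, adjusted p = 0.0178). SPRY4 had 11, 4 and 8 counts in Ctrl, 3, 4 and 5 counts at 0.5% and 5, 8 and 2 counts at 1%.

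**Figure D4:**
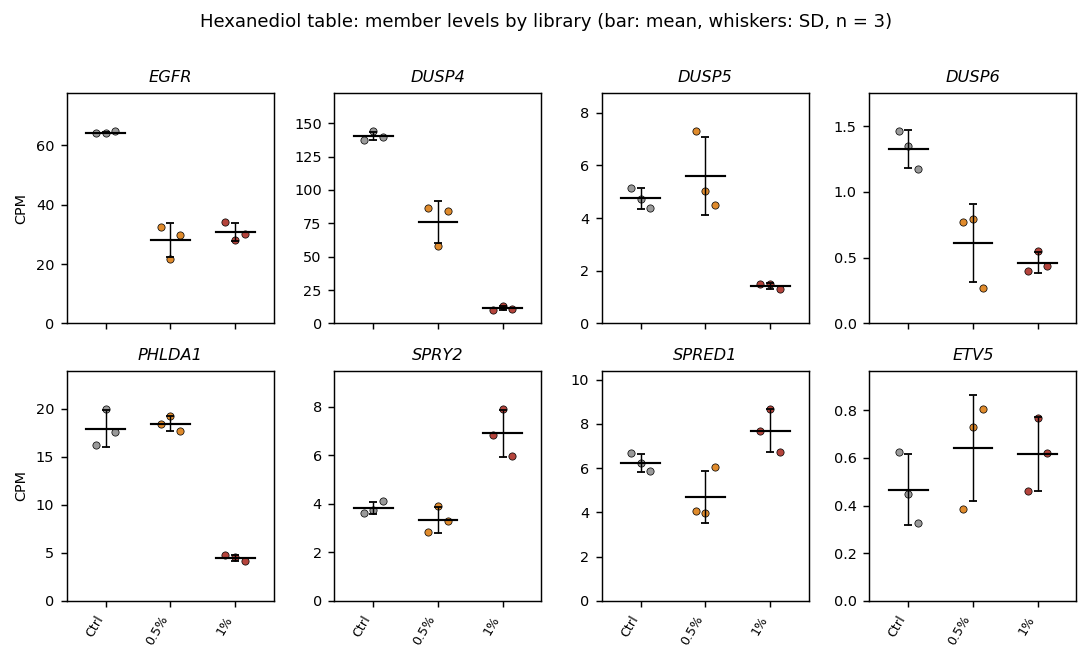
CPM (linear axis from 0) of the 8 members tested in the 3 libraries of Ctrl, 0.5% and 1% 1,6-hexanediol; points are libraries, bars means and whiskers SD. EGFR is at 64.1 to 64.7 CPM in Ctrl and 21.8 to 34.3 CPM over both doses, while PHLDA1 is at 4.10 to 4.73 CPM at 1% only.

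Other ERK-responsive targets were mostly lower with hexanediol. Of 15 tested, 3 were higher and 9 lower at 0.5% (median −0.82), and 1 higher and 10 lower at 1% (median −0.85), beside medians of 0.00 and −0.04 over all genes. FOS was at 5.18 CPM in Ctrl, 1.62 CPM at 0.5% and 0.466 CPM at 1%, and MYC at 19.6 CPM, 9.55 CPM and 3.12 CPM. Cyclin D1, CCND1, was at 219 CPM in Ctrl and 26.3 CPM at 1% (−3.06 ± 0.13). Of 16 ligands and receptors, 5 were higher and 4 lower at 0.5% (median −0.06), and 6 higher and 6 lower at 1% (median −0.32), with HBEGF at 1.90 CPM in Ctrl and 13.7 CPM at 1% (2.85 ± 0.14) and ERBB2 at 120 CPM in Ctrl and 45.6 CPM at 1% (−1.39 ± 0.07). Of 18 cascade genes, 4 were higher and 3 lower at 0.5% (median 0.08), and 9 higher and 3 lower at 1% (median 0.23), with SOS1 at 52.6 CPM in Ctrl and 108 CPM at 1%. Of 21 other inhibitors, 4 were higher and 3 lower at 0.5% (median 0.06), and 7 higher and 7 lower at 1% (median −0.03), with SPRED2 at 26.2 CPM in Ctrl and 9.48 CPM at 1% (−1.46 ± 0.14).

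The luminal markers summed to 27961 to 31088 CPM in Ctrl, 13632 to 18064 CPM at 0.5% and 4519 to 4619 CPM at 1%. Of these 10 markers, 2 were higher and 3 lower at 0.5% (median −0.10). At 1%, 9 were lower and none higher (median −2.05). The 12 markers of other cell types summed to 41.7 to 47.4 CPM in Ctrl, 49.2 to 55.5 CPM at 0.5% and 46.0 to 51.3 CPM at 1%. COL1A1 was the largest (24.3 to 38.5 CPM), followed by COL1A2 (6.98 to 9.72 CPM). Unlike in the other tables, nearly all were detected in every library, with only CD68 at 0 in 1 library. Several of these markers lay at levels like those of DUSP6, ETV4, ETV5 and SPRY4 here. Mitochondrial transcripts took 5.54 to 5.73% of counts in Ctrl, 4.88 to 6.54% at 0.5%, lowest in the second library, and 4.37 to 4.56% at 1%. Their part in the results was not tested. With library size scaling, genes split 4564 higher and 2356 lower at 0.5% instead of 3265 and 3301 (median 0.12), and 6314 and 4239 at 1% instead of 5084 and 5439 (median 0.13).

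In the sgRNA table DUSP4, SPRY4, ETV5 and SPRED1 were called higher with both sgZHX2 groups, and EGFR lower. The share of members called was below that over all genes, so the counts below describe single genes and not the set. With sgZHX2, 5 of 10 members tested were higher (DUSP4, SPRY4, ETV5, SPRED1 and PHLDA1) and EGFR was lower, where 73.1% of the 15781 genes tested were called, 37% higher and 36.1% lower. With teton_sgZHX2, DUSP4, SPRY4, ETV5 and SPRED1 were higher and EGFR lower, where 69.1% were called, 34.4% higher and 34.7% lower. The medians of the members were 0.18 and 0.32, beside 0.01 and 0.00 over all genes.

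DUSP4 had 36.1, 36.4 and 39.8 CPM in sgZHX2, against 12.9, 12.7 and 13.0 CPM in sgCtrl. The sgZHX2 libraries lay far above the sgCtrl libraries (1.54 ± 0.06 SE, edgeR adjusted p = 6.59e-28). DUSP4 had 35.4, 34.0 and 35.0 CPM in teton_sgZHX2, against 14.8, 15.3 and 14.99 CPM in teton_control, with no overlap (1.21 ± 0.05, edgeR adjusted p = 1.85e-24). The rise was smaller with teton_sgZHX2 than with sgZHX2 (difference −0.33 ± 0.08, adjusted p = 0.0021), the only member whose effects were called different, where 20.3% of genes were (12% higher, 8.33% lower).

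SPRY4 had 15, 18 and 16 counts in sgZHX2, against 4, 5 and 7 counts in sgCtrl, and 19, 22 and 12 counts in teton_sgZHX2, against 9, 8 and 6 counts in teton_control. Neither pair overlapped (1.58 ± 0.38, edgeR adjusted p = 0.000255, and 1.22 ± 0.34, adjusted p = 0.00162). ETV5 had 1.90, 1.44 and 2.31 CPM in sgZHX2, against 0.861, 0.583 and 0.687 CPM in sgCtrl, and 2.30, 1.66 and 1.74 CPM in teton_sgZHX2, against 0.881, 0.924 and 0.898 CPM in teton_control. Neither pair overlapped (1.42 ± 0.24, edgeR adjusted p = 8.89e-07, and 1.07 ± 0.22, adjusted p = 2.93e-05). SPRED1 had 5.61, 6.00 and 5.54 CPM in sgZHX2, against 3.40, 4.70 and 3.89 CPM in sgCtrl, and 7.14, 6.81 and 6.86 CPM in teton_sgZHX2, against 4.06, 4.70 and 4.68 CPM in teton_control. It was higher in each (0.51 ± 0.12, edgeR adjusted p = 0.000128, and 0.63 ± 0.11, adjusted p = 9.95e-07) with no overlap.

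EGFR had 29.8, 26.6 and 29.8 CPM in sgZHX2, against 36.6, 35.2 and 34.2 CPM in sgCtrl. The receptor was lower with no overlap (−0.30 ± 0.05, edgeR adjusted p = 1.1e-06), and the call was lost with GC and length correction (−0.10, adjusted p = 0.0859). EGFR had 30.3, 32.4 and 30.3 CPM in teton_sgZHX2, against 39.9, 37.5 and 39.0 CPM in teton_control, with no overlap (−0.32 ± 0.05, edgeR adjusted p = 9.16e-08). PHLDA1 had 11.2, 10.7 and 10.3 CPM in sgZHX2, against 9.11, 8.66 and 9.76 CPM in sgCtrl (0.23 ± 0.08, adjusted p = 0.0124), with no overlap. That call was lost with DESeq2 (adjusted p = 0.0589), without sgCtrl library 2 (0.18) and without sgZHX2 library 1 (0.19). In teton_sgZHX2 PHLDA1 was 0.14 above teton_control (adjusted p = 0.112), and it was called higher there with GC and length correction (0.37) and with library size scaling (0.19).

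The remaining members did not pass the test. DUSP5 had 28.7, 29.6 and 26.8 CPM in sgZHX2, against 27.4, 28.3 and 28.3 CPM in sgCtrl, and 26.0, 26.8 and 28.1 CPM in teton_sgZHX2, against 26.5, 25.6 and 27.2 CPM in teton_control. Both pairs overlapped (0.02, 95% interval −0.08 to 0.12, and 0.03, −0.07 to 0.13), and DUSP5 was called lower in both with GC and length correction (−0.38 and −0.27). ETV4 overlapped in both (0.08 and 0.18) and was called lower with sgZHX2 under that correction (−0.43). SPRY2 gave 0.01 (−0.43 to 0.44) and 0.00 (−0.41 to 0.42), and DUSP6, at 8 to 13 counts in all 12 libraries, gave 0.13 (−0.58 to 0.84) and 0.46 (−0.22 to 1.14). Over all genes the log2 fold change rose with GC content in both comparisons (Spearman rho 0.563 and 0.467 across genes, which are not independent replicates).

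**Figure D5:**
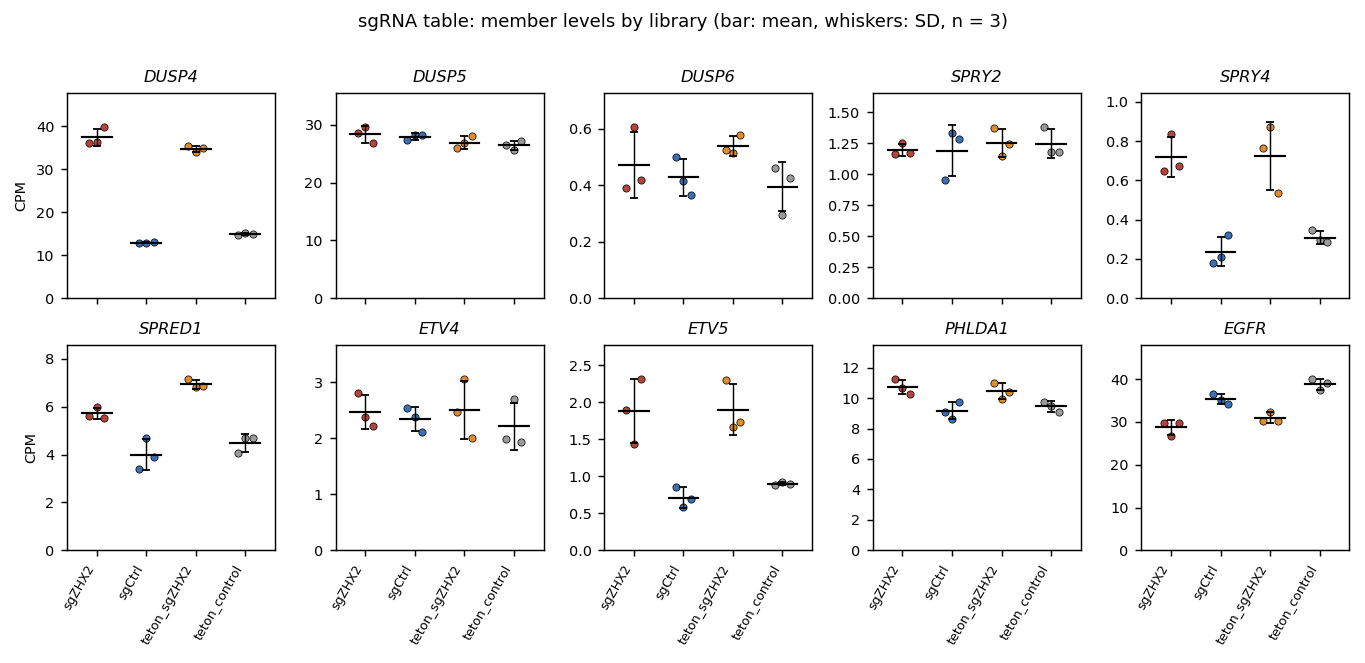
CPM (linear axis from 0) of the 10 members in the 3 libraries of sgZHX2, sgCtrl, teton_sgZHX2 and teton_control; points are libraries, bars means and whiskers SD. DUSP4 sits at 34.0 to 39.8 CPM in both sgZHX2 groups, against 12.7 to 15.3 CPM in their controls, and EGFR at 26.6 to 32.4 CPM, against 34.2 to 39.9 CPM.

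Of 16 ligands and receptors, 4 were higher and 8 lower with sgZHX2 (median −0.24), and 4 higher and 7 lower with teton_sgZHX2 (median −0.16). Amphiregulin, AREG, was at 128 against 262 CPM (−1.04 ± 0.03) with sgZHX2 and at 135 against 229 CPM (−0.76 ± 0.03) with teton_sgZHX2, and the EGFR ligand epigen, EPGN, at 14.1 against 3.92 CPM (1.85 ± 0.10) and 13.6 against 3.72 CPM (1.89 ± 0.10). Of 19 cascade genes, 7 were higher and 11 lower with sgZHX2 (median −0.29), and 6 higher and 10 lower with teton_sgZHX2 (median −0.19). Of 23 other inhibitors, 7 were higher and 10 lower with sgZHX2 (median −0.08), and 6 higher and 14 lower with teton_sgZHX2 (median −0.21), with the phosphatase DUSP2 at 5.79 against 2.33 CPM (1.30 ± 0.14) in sgZHX2. Of 17 other ERK-responsive targets, 8 were higher and 6 lower in each (medians 0.01 and −0.05). The luminal markers summed to 40247 to 41154 CPM in sgZHX2, against 39379 to 40108 CPM in sgCtrl. With teton_sgZHX2 their sum was 36769 to 38054 CPM, against 37141 to 37564 CPM in teton_control. Of these 10 markers, 2 were higher and 5 lower with sgZHX2, and 1 higher and 6 lower with teton_sgZHX2. The 12 markers of other cell types summed to 60.1 to 61.2 CPM in sgZHX2, against 31.1 to 33.3 CPM in sgCtrl, mostly COL1A1. Mitochondrial transcripts took 1.67 to 1.71% of counts in sgZHX2, against 2.51 to 2.71%. In teton_sgZHX2 these markers summed to 52.8 to 54.5 CPM, against 33.0 to 34.8 CPM in teton_control, and the mitochondrial share was 1.69 to 1.82%, against 2.83 to 2.95%. Their part in the results was not tested.

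The level of several members differed widely between hypoxic controls of different tables. The tables were not normalised together, so these ratios are descriptive. DUSP4 averaged 182 CPM in shCtrl hypoxia of the shRNA table and 6.53 CPM in shCtrl with vector of the rescue table, a ratio of 27.9. The same pair of groups gave ratios of 23.0 for DUSP6 and 14.0 for SPRY2. EGFR had its highest control level, 64.3 CPM, in Ctrl of the hexanediol table and its lowest, 11.8 CPM, in shCtrl hypoxia, a ratio of 5.43. The smallest ratios of highest over lowest control were 2.23 for SPRY4, 2.45 for PHLDA1 and 3.43 for ETV4. Per kilobase of exon, DUSP4 ranked first of the members in shCtrl hypoxia (25.1 ± 0.1 CPM per kb) and in hexanediol Ctrl (19.4 ± 0.4), and DUSP5 ranked first in shCtrl with vector (14.8 ± 0.6), sgCtrl (10.7 ± 0.2) and teton_control (10.1 ± 0.3). In shZHX2 hypoxia DUSP5 (6.12 ± 0.38 CPM per kb) stood above DUSP4 (4.07 ± 0.28). In shCtrl with vector, PHLDA1 (1.18 ± 0.15 CPM per kb) and EGFR (1.13 ± 0.10), the next in order, did not differ beyond their spread. SPRY4 was among the lowest members in most groups. ETV5 ranked last in each group of the shRNA table and in hexanediol Ctrl, and higher in the other groups. In shCtrl hypoxia SPRY4 was at 0.0714 ± 0.0458 CPM per kb and ETV5 at 0.0211 ± 0.0277.

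Over the 15 group means of log2 CPM, centred within each table, DUSP5 and PHLDA1 were the most alike of the members tested in all tables (Pearson r 0.898), and DUSP5 and SPRY2 the least (−0.294). EGFR correlated with PHLDA1 at 0.518 and with DUSP4 at 0.514. Among 11898 genes tested in all 4 tables, those whose pattern was most like that of EGFR were PREP (0.965), YWHAQ (0.953), RAD54L (0.934), ARHGEF39 (0.932) and COQ2 (0.93). Groups of one table share a centring, and these values are descriptions over 15 points. DUSP6 was not tested in all tables and got no such list.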

How the data were processed

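The authors' files are 4 tables of whole-number read counts per gene, deposited without normalisation. The submitters' processing notes name FastQC, HISAT2, featureCounts and DESeq2 with hg38; the sources used here give neither roles nor versions, annotation or strand setting, so counts of overlapping or antisense genes are uncertain. Symbols were matched for 60370 of 60624 Ensembl identifiers, and positions, exon length and GC content came from GENCODE release 29 (GRCh38, the build hg38 names).

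The quasi-likelihood test of edgeR 4.0.16 (R 4.3.3) was run on the counts (filterByExpr, TMM, robust glmQLFit, glmQLFTest), 1 fit per table over all its groups, with p-values adjusted by Benjamini-Hochberg over 14903 (shRNA), 16840 (hexanediol), 14302 (rescue) and 15781 (sgRNA) genes and called under 0.05. Levels are CPM with TMM-scaled library sizes within a table. SE is the log2 fold change over the square root of F, and intervals are 95%. Common biological coefficients of variation were 4.15%, 10.2%, 3.16% and 2.81%. The 45 replicate pairs differed by more than counting noise (chi-square per degree of freedom 1.77 to 29.5), and counting intervals cover counting error only.

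All 10 members are given whatever their values, with at most 4 of the largest called genes per list; the members and lists were chosen with earlier results of these data known. Genes like EGFR were the 5 with the highest correlation. Single genes of the lists were not examined under the alternatives below. Deviations of libraries with the same replicate number correlated only between 0.5% and 1% hexanediol (0.12, 0.318 and 0.116). The second library stood apart at both doses, so pairing by number and a shared deviation of these libraries cannot be told apart. Alternatives were DESeq2 1.42.0, its size factors, library size scaling, no filter, only the groups compared, a replicate block, GC and length correction (mgcv 1.9.3), both together, and leaving out libraries.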

Additional observations from a re-analysis of the deposited data

Results flagged for a closer look

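DUSP4, the nuclear ERK phosphatase, rose less with teton_sgZHX2 than with sgZHX2, by −0.33 on the log2 scale (−0.3273 ± 0.0794 SE, edgeR adjusted p = 0.0021, 95% interval −0.48 to −0.17). It was 2.32-fold higher in teton_sgZHX2 than in teton_control (34.8 against 15.004 CPM) and 2.91-fold higher in sgZHX2 than in sgCtrl (37.4 against 12.9 CPM), in 3 of 3 libraries of each. The difference between both rises was tested in the same fit. With any library left out it was −0.35 to −0.28, and DUSP4 was called under each alternative run. Over all genes the difference of both sgRNA effects fell with GC content (Spearman rho −0.489 across genes, which are not independent replicates).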

How the results depend on the processing

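Of 1767 member values recomputed, 1670 kept their side of the threshold and, where called, their direction, 70 lost a call, 14 gained one and 13 turned. Among the 1670, 75 changed sign but were called under neither setting. Library size scaling turned DUSP5 (−0.2539) and SPRY2 (−0.3242) in hypoxia and DUSP5 in PA over WT (0.1778). GC and length correction turned DUSP5 (−0.58) and SPRED1 (0.4447) in hypoxia, DUSP5 (−0.3781) and ETV4 (−0.4336) with sgZHX2, and DUSP5 with teton_sgZHX2 (−0.2654). With the replicate block added to it these were −0.5786, 0.448, −0.3779, −0.4244 and −0.2657. The replicate block alone changed 1 call, DUSP6 in hypoxia (−0.3589, edgeR adjusted p = 0.0611). It changed no call in 1% over 0.5% hexanediol, where deviations of libraries with the same number correlated. Members called in hypoxia numbered 4 to 6 with a library left out, instead of 7. For PA over vector they numbered 1 with GC and length correction, alone or with the block, and 1 to 3 with a library left out, instead of 2. For SA over vector they numbered 1 with that correction, alone or with the block, 1 with DESeq2 and 1 to 3 with a library left out, instead of 3. Over all genes, SA over vector had 2892 higher and 3072 lower, against 2159 and 1612 with that correction (2140 and 1600 with the block), and the difference of both sgRNA effects 1891 and 1315, against 851 and 364 (817 and 353). The cause of these changes was not tested. In the comparisons for which no GC trend is given above, Spearman rho over all genes was −0.314 to 0.257.

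Depth limits DUSP6, SPRY2, SPRY4, SPRED1 and ETV5 in the rescue table and SPRY4, ETV4, ETV5 and DUSP6 in the hexanediol table, where a library often held under 20 counts, so small differences in them were not detectable at this depth. Counts were also low for DUSP6 (8 to 13 per library) and SPRY4 (4 to 22) in the sgRNA table. In the shRNA table they were low for ETV5 and SPRY4, and with shZHX2 for DUSP6, SPRED1 and ETV4. ZHX2 counts do not check the sgRNA labels.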
